A study of Mus musculus with 24 samples.

Results

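Copying the genome takes a set of proteins that appear together in S phase, and 39 genes for this machinery and for its deoxynucleotide supply were followed here through osteoclast formation in mouse marrow cultures. Members were taken by gene symbol from the deposited expression table. Of the 39 genes listed, 38 were among the 10721 genes of the table, and Rfc4 was not analysed here. By role they are 4 licensing genes (Orc1, Orc6, Cdc6, Cdt1), 10 helicase genes (Mcm2 to Mcm7, Mcm10, Cdc45, Gins1, Gins2), 8 genes for polymerases and primase (Pola1, Pola2, Prim1, Prim2, Pold1, Pold2, Pole, Pole2), 6 for the sliding clamp, its loader, the flap nuclease and the ligase (Pcna, Rfc2, Rfc3, Rfc5, Fen1, Lig1), 3 for the single-strand binding protein RPA (Rpa1, Rpa2, Rpa3), 4 for nucleotide synthesis (Rrm1, Rrm2, Tyms, Tk1) and 3 for copying chromatin behind the fork (Uhrf1, Chaf1a, Chaf1b).

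In each cell cycle the origin recognition complex, Cdc6 and Cdt1 load the ring of Mcm2 to Mcm7 onto origins in G1. Cdc45 and the GINS complex turn that ring into the active helicase at the start of S phase, and primase, the replicative polymerases and the Pcna clamp then copy both strands. Many of these genes are transcribed by E2F factors, which RB proteins hold in check until cyclin-dependent kinases act. Osteoclasts form when marrow precursors of the monocyte and macrophage lineage leave the cell cycle and fuse under RANKL, the cytokine that commits them.

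Bulk RNA was sequenced from 24 cultures in 8 groups of 3, 1 culture per mouse and day. The KO groups came from mice 481, 528 and 532, which lack STING, the adaptor that signals from cytosolic DNA, and the WT groups came from mice 480, 529 and 531. The sources used here do not describe the mutant allele or the strain. All donors were females of 10 to 12 weeks, and their marrow first grew for 72 hours with mCSF, the macrophage growth factor, at 40 ng/mL. Cells replated at 25000 per well with 10 ng/mL RANKL and 20 ng/mL mCSF were harvested at days 2, 3 and 4, with part of the medium renewed at day 2 and triplicate wells pooled, while day 0 cells were RANKL-naive cells left over from the expansion. Day 0 therefore differs from the later days in RANKL, in replating and in mCSF dose, and these cannot be told apart.

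Sting1, listed under its older name, measured 5.08, 4.57 and 4.89 FPKM in KO cultures at day 0, against 28.7, 25.4 and 21.3 FPKM in WT cultures, lower in every KO culture. The gap was smaller under RANKL: 3.70, 3.41 and 3.37 FPKM in KO against 5.28, 6.15 and 7.35 in WT at day 2, 3.76, 3.79 and 3.19 against 4.03, 4.69 and 4.58 at day 3, and 2.65, 2.86 and 2.85 against 3.38, 4.93 and 5.01 at day 4. FPKM scale fragments by transcript length and by library size, and the values of the table summed to 573661 to 652938 in KO and 619851 to 734974 in WT libraries at day 0, against 459180 to 537906 over the RANKL libraries of both genotypes; how deeply each library was read is not known here. The day 0 cultures also held other cells. The 10 neutrophil markers in the table summed to 7504 to 12891 FPKM in KO and 5903 to 15957 FPKM in WT cultures at day 0, while at day 4 the sums were 126 to 139 and 74.8 to 163 FPKM, with no marker at 0 in all 3 libraries of a group. The 9 osteoclast markers summed to 60.1 to 166 FPKM in KO and 93.1 to 143 FPKM in WT cultures at day 0, and to 45346 to 49978 and 41422 to 48183 FPKM at day 4. The 6 macrophage markers summed to 2343 to 3236 FPKM in KO and 2191 to 3314 FPKM in WT cultures at day 0, and to 3146 to 3915 and 3233 to 3609 FPKM at day 4. Single markers of that sum differed in direction from day 0 to day 4. Mean Cd68 rose from 1856 to 2648 FPKM in KO and from 1725 to 2513 in WT, and Csf1r rose in both. Mean Cd14 fell from 436 to 47.3 FPKM in KO and from 321 to 41.2 in WT, and Fcgr1 and Emr1 fell in both. One library stands apart: in the day 0 culture of WT mouse 480 all 38 members were below the mean of the other 2 WT libraries (median difference -0.69 in log2), and its neutrophil sum of 15957 was the highest of the 6. Its B cell marker sum of 203 FPKM was the highest of WT, beside 206 in KO mouse 481, whose library was not low. Its part, and that of the changing cell mix, in the results below was not tested. The main member medians and counts of calls that use that library are also given without it, as are calls it changes among the genes described. Given only with it are the counts of non-overlapping values, the medians by E2F letters, the counts of other pathway genes and the length correlations.

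**Figure D1:**
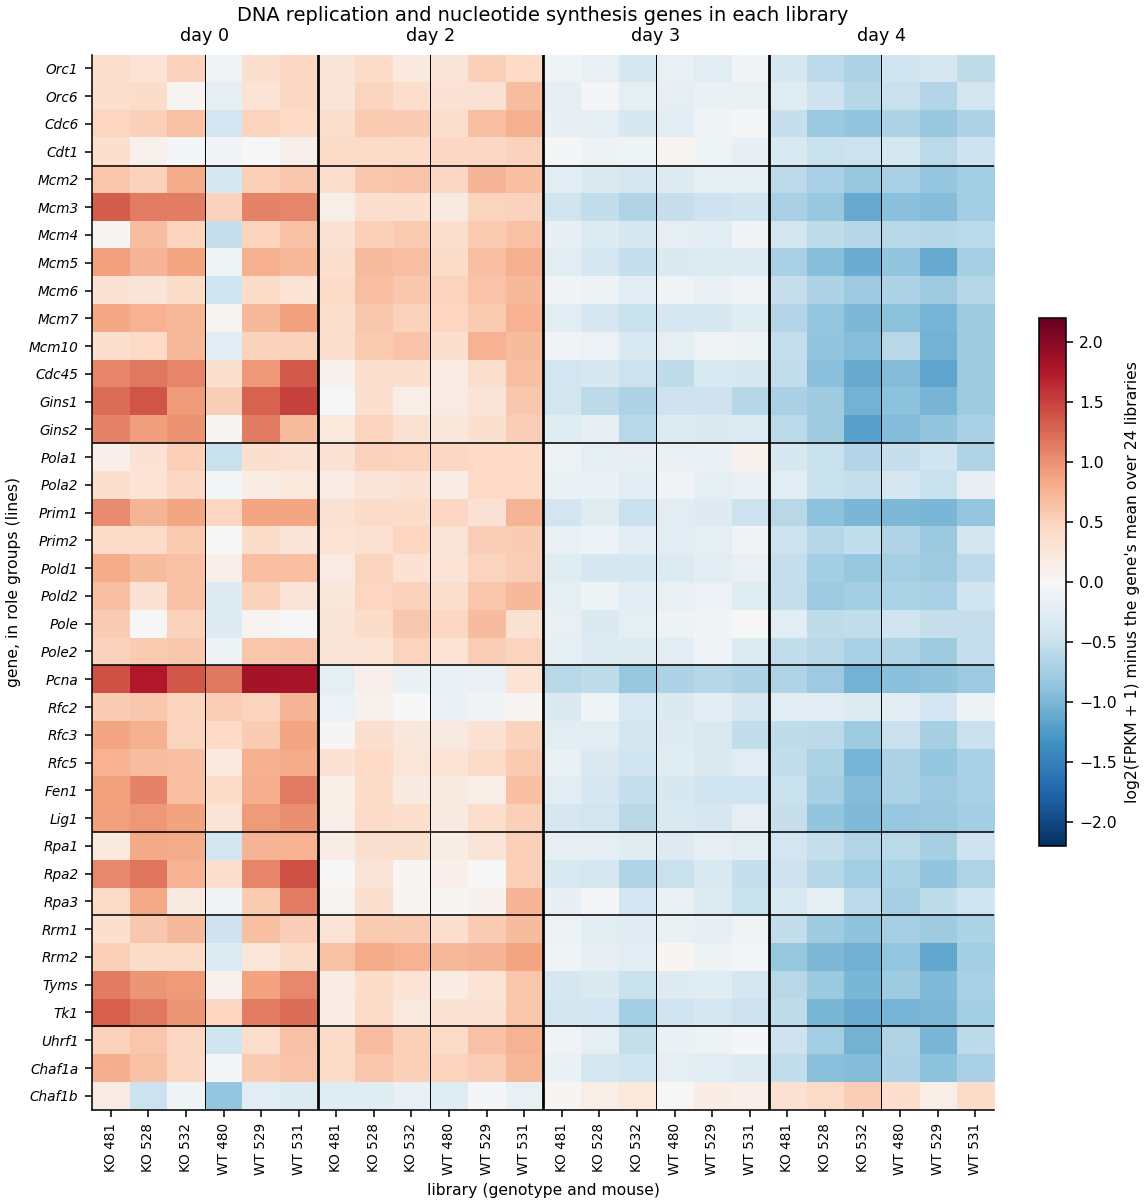
Level of each of the 38 genes (lines, grouped by role) in each of the 24 libraries (columns, KO left of WT within a day), as log2(FPKM + 1) minus the gene's mean over all libraries. Colours run from high at day 0 or day 2 to low at day 4 for every gene except Chaf1b, and the WT day 0 library of mouse 480 lies below the mean of its 2 partners for each gene.

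Messages for the replication machinery fell as a block while osteoclasts formed. Set against day 0, 37 of the 38 genes were lower and Chaf1b was higher at day 4, in KO and in WT cultures alike (limma on log2(FPKM + 1), Benjamini-Hochberg adjusted p under 0.05 over 10081 genes tested). In KO cultures 40.8% of all genes tested were called lower and 38.6% higher in that comparison, and in WT cultures 42.7% and 39.2%. The median change of the members was -1.32 in KO and -1.05 in WT on the log2(FPKM + 1) scale, beside -0.05 and -0.07 over all genes tested. Without the day 0 library of mouse 480 the WT median was -1.33, and every WT day 4 change of the 38 genes was then more negative, or for Chaf1b less positive, than the values given below. All 3 day 4 values lay below all 3 day 0 values for 37 genes in KO cultures, beside 42.5% of all genes tested, and for 36 in WT cultures, beside 42.9%, where Pola1 overlapped. Summed over the 38 genes, KO libraries held 1790.4, 1897 and 1728 FPKM at day 0 and WT libraries 1193, 1872.5 and 1961 FPKM; by day 4 the sums were 579 to 711 FPKM in KO and 580 to 669 FPKM in WT. In bulk RNA, fewer cells in S phase, less RNA per cell and the changing cell mix cannot be told apart.

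The fall was not even in time. Between day 0 and day 2 the share of members called was near that of all genes, or below it, in each direction. In KO cultures 14 were lower and 1 was higher, with 36.5% and 37.1% of all genes tested called in those directions; in WT cultures 7 were lower and 8 higher, with 37.5% and 38.5% of all genes. The 7 genes lower in WT (Mcm3, Gins1, Pcna, Rfc2, Fen1, Rpa2, Tk1) were all among the 14 of KO, which is 100% of the WT list and 50% of the KO list. Without the WT library of mouse 480 at day 0, an alternative chosen after seeing the data, 12 genes were lower and 3 higher (Cdt1, Pole, Rrm2) in WT, and the median was -0.16, against 0.11 with it; KO had -0.24. After scaling each library to a common median, 9 were lower and 5 higher in WT. The genotypes' day 0 to day 2 changes were not called different for any member, as given further on.

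From day 2 to day 3 nearly the whole machinery dropped: 36 genes in KO cultures (20.3% of all genes tested were called lower) and 37 in WT cultures (24.2%), with the 36 shared and member medians of -0.68 and -0.69. Upward calls in that step were 1 in KO (23.6% of all genes), Chaf1b, and 0 in WT (24.9%), where Chaf1b had an adjusted p of 0.0501 by limma and 0.0370 with the mouse as a block. From day 3 to day 4 the fall went on at a smaller size, in 29 KO genes (17.6% of all genes lower) and 32 WT genes (19.8%), 28 of them shared, with medians of -0.36 and -0.46. Chaf1b rose again in KO (18.2% of all genes higher) and 0 genes did in WT (19%). The KO falls of that step were 14 without mouse 528 and 12 with equal weights, with no rise in either. The highest mean over the 4 days fell on day 0 for 28 genes, day 2 for 9 and day 4 for 1 in KO cultures; in WT cultures day 0 held 17, day 2 20 and day 4 1, and without the day 0 library of mouse 480 these were 22, 15 and 1.

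Each mouse could be followed on its own. The median member at day 4 stood at 41.9, 36.0 and 32.5% of its own day 0 level in KO mice 481, 528 and 532, and at 61.7, 34.4 and 37.6% in WT mice 480, 529 and 531. At day 2 the same medians were 75.0, 89.1 and 87.2% in the KO mice and 135.9, 92.3 and 94.9% in the WT mice. Mouse 480, whose day 0 library was low, is the one mouse with a median above its start at day 2.

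**Figure D2:**
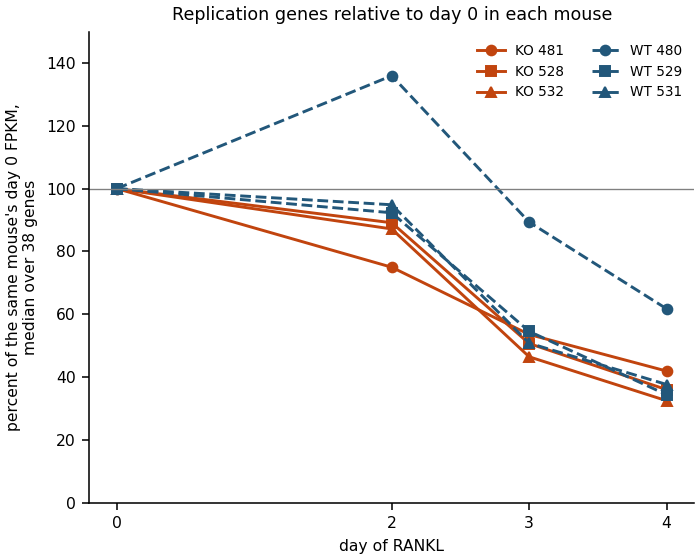
Percent of the mouse's own day 0 FPKM left at days 2, 3 and 4, as the median of the 38 genes with 1 line per mouse (KO solid, WT dashed). The medians at day 4 are 41.9, 36.0 and 32.5% in the KO mice and 61.7, 34.4 and 37.6% in the WT mice, and mouse 480 lies above the others at each day.

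On the log2(FPKM + 1) scale licensing genes had the smallest median change of the 7 role groups, -0.83 in KO and -0.70 in WT at day 4 against day 0 (-0.87 in WT without the day 0 library of mouse 480). That scale understates the changes of low genes such as Orc1 and Cdc6, so the ranking is for that scale only. In FPKM the WT mice kept medians of 44.7% for Orc1, 53.6% for Orc6, 36.4% for Cdc6 and 66.5% for Cdt1 at day 4. Cdt1, which with Cdc6 brings the Mcm ring to origins, was the most abundant of the 4. It measured 55.5, 45.8 and 41.6 FPKM at day 0, 57.2, 57.6 and 57.4 at day 2, 41.8, 39.6 and 39.7 at day 3 and 33.7, 30.0 and 30.5 at day 4 in KO cultures. WT cultures had 41.0, 43.0 and 46.3 FPKM at day 0, 59.0, 58.6 and 60.9 at day 2, 44.6, 39.8 and 37.7 at day 3 and 32.2, 28.1 and 30.8 at day 4. Every day 2 value was above every day 0 value of the same genotype, and every day 4 value was below. The day 2 change was 0.27 (SE 0.108, limma adjusted p = 0.0286) in KO and 0.45 (SE 0.108, limma adjusted p = 0.000942) in WT. The KO call held in 12 of 15 alternatives. It was lost, among others, without mouse 528 (limma adjusted p = 0.149) or without mouse 532 (0.269). By day 4 Cdt1 had fallen by 0.58 in KO and 0.50 in WT on the log2 scale. Cdc6, an ATPase that loads the ring, ended lower: 5.65, 5.84 and 6.44 FPKM in KO cultures at day 0, 5.22, 6.08 and 6.05 at day 2 and 2.34, 1.71 and 1.62 at day 4, with 2.54, 5.71 and 5.43, then 5.25, 6.59 and 7.22, then 1.99, 1.67 and 1.98 in WT. Its day 4 change was -1.28 (SE 0.184, limma adjusted p = 2.80e-06) in KO and -0.90 (SE 0.184, limma adjusted p = 0.000169) in WT, or -1.19 in WT without the day 0 library of mouse 480. Orc1 and Orc6, subunits of the origin recognition complex, changed by -0.94 and -0.72 in KO and by -0.70 and -0.69 in WT.

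Helicase genes fell by a median of 1.68 in KO and 1.42 in WT on the log2 scale at day 4 (1.69 in WT without the day 0 library of mouse 480), and the 6 subunits of one ring did not fall by like amounts. Mcm3 measured 87.0, 75.9 and 75.9 FPKM at day 0, 37.5, 44.2 and 44.4 at day 2, 24.8, 23.1 and 21.1 at day 3 and 20.5, 18.5 and 15.3 at day 4 in KO cultures. In WT cultures it measured 48.6, 73.5 and 73.1 FPKM at day 0, 39.3, 48.0 and 48.7 at day 2, 23.7, 24.6 and 24.9 at day 3 and 17.5, 17.2 and 19.6 at day 4. Its fall had begun by day 2. All day 2 values of KO lay below all day 0 values, while those of WT overlapped. The day 2 change was -0.91 (SE 0.164, limma adjusted p = 4.99e-05) in KO and -0.49 (SE 0.164, limma adjusted p = 0.0100) in WT. From day 2 to day 3 the change of Mcm3 was -0.84 in KO and -0.86 in WT. Mcm6 did not fall between day 0 and day 2. It measured 102, 99.9 and 109 FPKM at day 0, 110.1, 130.0 and 124 at day 2, 78.0, 75.6 and 68.7 at day 3 and 56.9, 50.5 and 46.4 at day 4 in KO cultures. WT cultures had 60.3, 108 and 100.3 FPKM at day 0, 115, 127 and 134 at day 2, 77.2, 73.5 and 77.8 at day 3 and 50.7, 47.2 and 52.4 at day 4. Its day 2 values lay above all its day 0 values in both genotypes, with a change of 0.22 (SE 0.151, limma adjusted p = 0.185) in KO and 0.52 (SE 0.151, limma adjusted p = 0.00405) in WT. Without the day 0 library of WT mouse 480 the WT change of Mcm6 was 0.26 (SE 0.132, limma adjusted p = 0.0824) and that of Mcm3 -0.69 (SE 0.164, limma adjusted p = 0.000993). The WT call of Mcm3 was lost without mouse 529 (limma adjusted p = 0.0881) or mouse 531 (0.0678), and that of Mcm6 held in 12 of 15 alternatives. At day 4 Mcm3 had changed by -2.08 in KO and -1.77 in WT, and Mcm6 by -1.01 and -0.78. The ratio of Mcm6 to Mcm3, in FPKM and so per length, was 1.17 to 1.44 in KO and 1.24 to 1.48 in WT libraries at day 0, and 2.72 to 3.04 and 2.68 to 2.89 at day 4.

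The promoters of these partners are shown because the genes serve one ring and yet differ in the first step. The windows hold 250 bases before the start site and 50 from it, from RefSeq on GRCm38.p6, for Mcm3 at chr1:20820263-20820562 and Mcm6 at chr1:128359656-128359955, both on the minus strand and given 5′ to 3′. Capitals mark the E2F letters searched (TTTGGCGC, TTTGCCGC, TTTCGCGC and TTTCCCGC, on both strands).
Mcm3: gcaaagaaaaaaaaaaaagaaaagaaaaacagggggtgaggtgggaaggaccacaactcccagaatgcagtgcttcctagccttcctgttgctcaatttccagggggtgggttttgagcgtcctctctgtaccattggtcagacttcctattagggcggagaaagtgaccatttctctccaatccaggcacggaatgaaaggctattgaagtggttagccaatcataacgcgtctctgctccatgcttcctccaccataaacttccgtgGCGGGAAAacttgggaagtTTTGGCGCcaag
Mcm6: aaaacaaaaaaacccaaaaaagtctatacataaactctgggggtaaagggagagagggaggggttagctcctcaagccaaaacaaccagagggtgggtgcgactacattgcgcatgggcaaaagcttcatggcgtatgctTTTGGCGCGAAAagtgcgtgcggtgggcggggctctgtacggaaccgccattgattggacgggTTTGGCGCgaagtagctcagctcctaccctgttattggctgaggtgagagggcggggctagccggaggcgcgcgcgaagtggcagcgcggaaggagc
Mcm3 has matches that begin at positions 20 and 39, counted from 1 at the start site. Mcm6 has matches at -110, -106 and -47, and the first pair of them share letters.

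Mcm4, Gins1, Gins2, Prim2, Pole and Rfc2 had no RefSeq window. Of the 32 members with one, 13 (40.6%) hold these letters, and 13 of their 38 windows (34.2%) do, beside 744 of 32851 windows over all genes (2.26%). They are spread over licensing (Orc1, Cdc6, Cdt1), the Mcm ring (Mcm3, Mcm5, Mcm6, Mcm7), polymerases (Pola1, Pold1, Pole2), Rfc3, Lig1 and Uhrf1. CCAAT on either strand was in 60.5% of member windows and 37.4% of all windows, and the letters TTTGAA or TTCGAA, known from cell cycle promoters that act later, in 15.8% and 19.2%. The median change at day 4 was -1.28 in KO and -1.03 in WT for the 13 genes with E2F letters, and -1.41 and -1.12 for the 19 without. A match in letters is a description and not a site.

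Gins1, a subunit of the GINS complex that joins Cdc45 and the ring, had the largest day 4 change of the helicase genes in WT cultures. It measured 35.5, 39.2 and 28.7 FPKM at day 0, 14.4, 18.7 and 16.1 at day 2 and 8.43, 7.96 and 6.57 at day 4 in KO cultures, and 21.4, 37.1 and 42.9, then 16.5, 17.9 and 22.5, then 7.33, 6.64 and 8.06 in WT cultures. The change at day 4 was -2.03 (SE 0.201, limma adjusted p = 1.45e-08) in KO and -2.01 (SE 0.201, limma adjusted p = 1.66e-08) in WT, and at day 2 it was already -1.02 in KO and -0.76 in WT. Cdc45 followed a like course at -1.96 in KO and -1.85 in WT. Mcm2, Mcm4, Mcm5 and Mcm7 fell by 0.92 to 1.75 in KO and 0.81 to 1.46 in WT on the log2 scale, and Mcm10, which helps to start the helicase, by 1.28 and 1.07. Gins2 fell by 1.85 and 1.47; 67.3% of its exon bases lie opposite exons of Gse1, which changed by 0.90 in WT at day 4, and since the strandedness of the libraries is not given in the sources used here, reads of overlapping genes cannot be told apart.

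Polymerase and primase genes had median day 4 changes of -1.10 in KO and -0.82 in WT (-0.99 in WT without the day 0 library of mouse 480). Pold2, an accessory subunit of the lagging-strand polymerase delta, had the highest mean over all 24 libraries, though at day 4 the mean of Pola2 was slightly above it in both genotypes. It measured 32.5, 25.6 and 32.4 FPKM at day 0, 24.2, 28.5 and 29.4 at day 2, 17.3, 18.7 and 16.9 at day 3 and 13.8, 11.3 and 11.6 at day 4 in KO cultures. WT cultures had 16.4, 29.1 and 24.9 FPKM at day 0, 26.8, 31.4 and 34.0 at day 2, 18.1, 18.4 and 16.7 at day 3 and 12.1, 12.1 and 14.8 at day 4; mouse 480 had the lowest day 0 value. Its day 4 change was -1.23 (SE 0.167, limma adjusted p = 1.27e-06) in KO and -0.78 (SE 0.167, limma adjusted p = 0.000270) in WT. Prim1, the catalytic primase subunit that lays the RNA primer, fell most in this group. It measured 23.4, 19.0 and 20.7 FPKM at day 0 and 6.82, 5.32 and 4.90 at day 4 in KO cultures, with 15.5, 20.7 and 20.8 and then 4.99, 4.89 and 5.60 in WT, a change of -1.73 (SE 0.167, limma adjusted p = 1.01e-08) in KO and -1.69 (SE 0.167, limma adjusted p = 1.41e-08) in WT. Its partner Prim2 fell by 1.02 and 0.86 on the same scale.

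Pole, the catalytic subunit of the leading-strand polymerase epsilon, had the smallest day 4 change of this group in WT on the log2(FPKM + 1) scale. In FPKM the WT mice kept a median of 61.2% of their day 0 level of Pole at day 4, and 73.6% of that of Pola2. Pole measured 5.37, 3.29 and 5.14 FPKM at day 0, 4.32, 4.69 and 5.48 at day 2, 2.84, 2.46 and 2.77 at day 3 and 2.66, 1.93 and 1.94 at day 4 in KO cultures. In WT cultures it measured 2.55, 3.48 and 3.31 FPKM at day 0, 4.89, 6.01 and 4.44 at day 2, 3.00, 3.08 and 3.33 at day 3 and 2.16, 2.04 and 2.03 at day 4. All WT day 2 values were above all WT day 0 values. The day 4 change was -0.80 (SE 0.160, limma adjusted p = 0.000124) in KO and -0.41 (SE 0.160, limma adjusted p = 0.0224) in WT, and the WT call was lost without mouse 529 (adjusted p = 0.137) or mouse 531 (0.128). Pola1, Pola2, Pold1 and Pole2 fell by 0.80 to 1.42 in KO and 0.47 to 1.17 in WT.

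**Figure D3:**
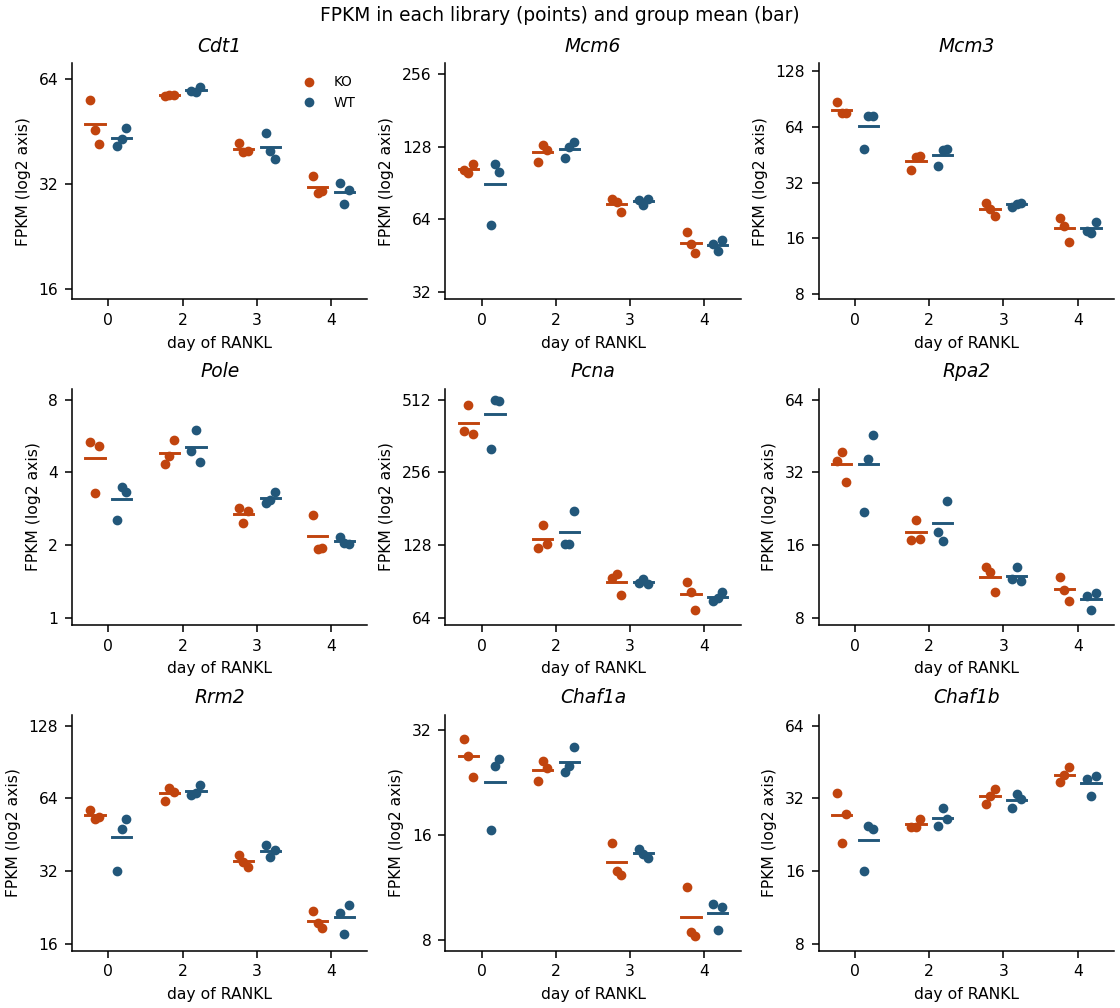
FPKM of 9 members (1 panel each, log2 axis) at days 0, 2, 3 and 4 of RANKL, with a point per library and a bar at the group mean, KO left of WT. Pcna, Mcm3 and Rpa2 drop by day 2, Mcm6, Cdt1 and Rrm2 are highest at day 2, and Chaf1b climbs to day 4.

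Pcna, the sliding clamp that holds polymerases on DNA, was the most abundant member on every day and had the largest day 4 change of the 38 genes in both genotypes. It measured 379, 489 and 369 FPKM at day 0, 125, 155 and 129 at day 2, 93.5, 97.0 and 79.7 at day 3 and 89.9, 82.0 and 69.1 at day 4 in KO cultures. WT cultures had 319.7, 511 and 508 FPKM at day 0, 129, 129 and 177 at day 2, 89.5, 92.8 and 88.6 at day 3 and 75.1, 77.1 and 81.7 at day 4. The values of days 0 and 2 lay wide apart in both genotypes, and days 3 and 4 lay close together. The change at day 2 was -1.58 (SE 0.193, limma adjusted p = 3.38e-07) in KO and -1.60 (SE 0.193, limma adjusted p = 2.82e-07) in WT, and at day 4 -2.34 (SE 0.190, limma adjusted p = 7.13e-10) in KO and -2.47 (SE 0.190, limma adjusted p = 3.32e-10) in WT. In the last step neither genotype was called, with -0.17 in KO and -0.21 in WT. Pcna made up 21.2 to 25.8% of the summed FPKM of the 38 genes in KO and 25.9 to 27.3% in WT libraries at day 0. A pseudogene, Pcna-ps2, has 99.2% identity over 781 bases of the transcript, and how such reads were assigned is not given in the sources used here.

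Rfc2, a subunit of the complex that loads the clamp, fell much less. It measured 80.3, 82.9 and 76.7 FPKM at day 0, 49.6, 58.3 and 53.9 at day 2 and 45.7, 46.2 and 44.2 at day 4 in KO cultures, and 79.3, 76.5 and 91.7, then 49.1, 52.3 and 56.4, then 46.3, 40.6 and 50.1 in WT cultures. The last step was not called in either genotype. Its day 4 change was -0.80 (SE 0.124, limma adjusted p = 6.95e-06) in KO and -0.84 (SE 0.124, limma adjusted p = 3.74e-06) in WT, and the ratio of Pcna to Rfc2 was 4.72 to 5.90 in KO and 4.03 to 6.67 in WT at day 0, and 1.56 to 1.97 and 1.62 to 1.90 at day 4. Exons of Lat2, which fell by 1.70 in KO and 2.05 in WT, lie opposite 15.1% of Rfc2's exon bases. Fen1, the nuclease that trims the flaps of lagging-strand fragments, measured 67.0, 76.4 and 56.3 FPKM at day 0 and 24.7, 21.0 and 17.7 at day 4 in KO, and 47.0, 62.0 and 79.5 and then 21.3, 19.8 and 21.3 in WT. Exons of Gm10143 lie opposite 78.8% of the exon bases of Fen1. The WT day 2 call of Fen1 was lost in 5 of 15 alternatives. Lig1, which seals those fragments, changed by -1.70 in KO and -1.54 in WT, and Fen1 by -1.61 and -1.52. Rfc3 and Rfc5, other loader subunits, changed by -1.35 and -1.46 in KO and by -1.19 and -1.35 in WT.

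The 3 RPA subunits form one trimer that coats single-stranded DNA, and all 3 fell by day 4. Rpa1, the largest subunit, measured 45.0, 69.8 and 69.2 FPKM at day 0, 43.3, 49.5 and 49.5 at day 2, 33.3, 33.2 and 32.0 at day 3 and 28.6, 26.5 and 24.4 at day 4 in KO cultures. WT cultures had 28.8, 65.7 and 66.2 FPKM at day 0, 43.6, 47.4 and 55.8 at day 2, 31.8, 33.4 and 32.6 at day 3 and 25.3, 22.9 and 27.9 at day 4. Rpa2, the subunit that checkpoint kinases phosphorylate, measured 35.6, 39.0 and 29.1 FPKM at day 0, 16.7, 20.4 and 17.0 at day 2 and 11.8, 10.4 and 9.38 at day 4 in KO, and 21.8, 36.3 and 45.9, then 18.2, 16.7 and 24.4, then 9.86, 8.65 and 10.1 in WT. Rpa2 had the larger early change: the day 2 change was -0.34 in KO and -0.04 in WT for Rpa1, and -0.90 and -0.74 for Rpa2. Without the day 0 library of WT mouse 480 the WT values were -0.43 (SE 0.163, limma adjusted p = 0.0231) for Rpa1 and -1.03 for Rpa2, whose WT call was lost without mouse 529 (limma adjusted p = 0.0655). Their day 4 changes were -1.16 (SE 0.196, limma adjusted p = 2.09e-05) in KO and -0.96 (SE 0.196, limma adjusted p = 0.000156) in WT for Rpa1, and -1.62 and -1.70 for Rpa2. The ratio of Rpa1 to Rpa2 was 1.27 to 2.38 in KO and 1.32 to 1.81 in WT at day 0, and 2.42 to 2.91 and 2.29 to 2.84 at day 2. Rpa3 changed by -0.85 in KO and -1.12 in WT at day 4.

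Genes that make deoxynucleotides fell by a median of 1.62 in KO and 1.27 in WT on the log2 scale at day 4 (1.57 in WT without the day 0 library of mouse 480). Tk1, the thymidine kinase of the salvage route, was lower at day 2 and fell further by day 3. The change from day 2 to day 3 was -0.80 in KO and -0.85 in WT for Tk1. It measured 76.8, 68.5 and 60.1 FPKM at day 0, 34.1, 40.8 and 35.2 at day 2, 22.5, 22.3 and 17.5 at day 3 and 20.1, 14.6 and 13.6 at day 4 in KO cultures. WT cultures had 42.2, 66.8 and 72.0 FPKM at day 0, 38.2, 37.9 and 46.6 at day 2, 21.9, 22.8 and 21.7 at day 3 and 14.3, 14.7 and 17.3 at day 4. Its day 2 change was -0.88 (SE 0.206, limma adjusted p = 0.000712) in KO and -0.52 (SE 0.206, limma adjusted p = 0.0272) in WT, where the call was lost without mouse 529 (adjusted p = 0.239) or mouse 531 (0.101), and by day 4 it reached -2.03 and -1.87. Tyms, which makes thymidylate by the other route, changed by -1.83 and -1.50.

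Ribonucleotide reductase, the enzyme that turns ribonucleotides into deoxynucleotides, has a large subunit, Rrm1, and a small subunit, Rrm2, that cycles with S phase. Rrm1 measured 58.2, 69.2 and 75.6 FPKM at day 0, 56.1, 68.6 and 67.6 at day 2, 41.5, 38.2 and 37.8 at day 3 and 31.0, 26.2 and 24.2 at day 4 in KO cultures. In WT cultures it measured 32.8, 72.3 and 66.7 FPKM at day 0, 59.4, 67.4 and 74.0 at day 2, 40.9, 40.3 and 43.1 at day 3 and 27.0, 26.1 and 27.6 at day 4. Its day 2 change in KO was -0.07 (SE 0.187, limma adjusted p = 0.724), and by day 4 it fell by 1.29 in KO and 0.98 in WT. Rrm2, chosen after its values were seen, measured 57.3, 52.6 and 53.5 FPKM at day 0, 62.5, 70.6 and 68.1 at day 2, 37.3, 34.8 and 33.4 at day 3 and 21.7, 19.5 and 18.5 at day 4 in KO cultures. WT cultures had 32.1, 47.8 and 52.7 FPKM at day 0, 66.0, 67.4 and 72.8 at day 2, 40.8, 36.5 and 39.0 at day 3 and 21.5, 17.5 and 23.0 at day 4. Each day 2 value exceeded each day 0 value of its genotype, and the change was 0.29 (SE 0.149, limma adjusted p = 0.0802) in KO and 0.65 (SE 0.149, limma adjusted p = 0.000534) in WT. Without the day 0 library of mouse 480 the WT change was 0.44 (SE 0.143, limma adjusted p = 0.00915). At day 4 it was -1.41 in KO and -1.04 in WT.

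Chaf1b was the one gene that was higher at day 4 than at day 0. It and Chaf1a are the middle and large subunits of chromatin assembly factor 1, which lays histones on newly copied DNA. Chaf1b measured 33.5, 20.8 and 27.5 FPKM at day 0, 24.3, 24.3 and 26.3 at day 2, 30.3, 32.8 and 34.9 at day 3 and 37.5, 39.8 and 43.1 at day 4 in KO cultures. WT cultures had 16.0, 24.5 and 23.8 FPKM at day 0, 24.4, 29.0 and 26.3 at day 2, 29.2, 33.2 and 31.8 at day 3 and 38.5, 32.7 and 39.5 at day 4. Every day 4 value was above every day 0 value of its genotype. Chaf1a measured 30.3, 27.0 and 23.6 FPKM at day 0, 22.9, 26.1 and 24.9 at day 2, 15.2, 12.7 and 12.3 at day 3 and 11.4, 8.43 and 8.22 at day 4 in KO cultures. WT cultures had 16.6, 25.3 and 26.6 FPKM at day 0, 24.3, 25.2 and 28.7 at day 2, 14.7, 14.2 and 13.8 at day 3 and 10.2, 8.57 and 9.99 at day 4, with every day 4 value below every day 0 value. At day 4 Chaf1b had changed by 0.56 (SE 0.153, limma adjusted p = 0.00226) in KO and 0.78 (SE 0.153, limma adjusted p = 0.000106) in WT, and Chaf1a by -1.44 (SE 0.172, limma adjusted p = 2.07e-07) in KO and -1.15 (SE 0.172, limma adjusted p = 4.23e-06) in WT. Without the day 0 library of mouse 480 the WT changes were 0.59 for Chaf1b and -1.35 for Chaf1a, both called. The KO rise of Chaf1b was 0.39 without mouse 528 and then missed the threshold (limma adjusted p = 0.0772). Their ratio, Chaf1b over Chaf1a, was 0.772 to 1.16 in KO and 0.897 to 0.967 in WT libraries at day 0 and 3.30 to 5.24 and 3.78 to 3.96 at day 4.

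Chaf1b changed by -0.10 (SE 0.155, limma adjusted p = 0.569) in KO and 0.32 (SE 0.155, limma adjusted p = 0.0679) in WT between days 0 and 2, and the WT value was 0.13 without the day 0 library of mouse 480. It changed by 0.37 (SE 0.0967, limma adjusted p = 0.00370) in KO and 0.23 (SE 0.0967, limma adjusted p = 0.0501) in WT between days 2 and 3. From day 3 to day 4 it changed by 0.29 (SE 0.0930, limma adjusted p = 0.0196) in KO, a call lost when any one KO mouse was left out or with equal weights, and by 0.22 (SE 0.0930, limma adjusted p = 0.0632) in WT. Exons of Ubxn6 lie opposite 52.5% of the exon bases of Chaf1a, and Ubxn6 changed by -0.70 in KO and -0.92 in WT at day 4. Uhrf1, the third gene of the group, which brings the maintenance methyltransferase to new DNA, changed by -1.28 in KO and -0.95 in WT at day 4.

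The promoters of the 2 subunits are shown since the messages of one complex took opposite directions. They are Chaf1a at chr17:56040166-56040465 and Chaf1b at chr16:93883651-93883950, both on the plus strand of GRCm38.p6 (RefSeq), 5′ to 3′.
Chaf1a: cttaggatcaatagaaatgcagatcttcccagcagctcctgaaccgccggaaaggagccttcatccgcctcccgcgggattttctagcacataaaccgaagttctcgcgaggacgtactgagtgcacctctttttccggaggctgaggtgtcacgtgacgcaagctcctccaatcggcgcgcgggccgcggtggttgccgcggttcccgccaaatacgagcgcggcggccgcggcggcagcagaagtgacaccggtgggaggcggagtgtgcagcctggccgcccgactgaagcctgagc
Chaf1b: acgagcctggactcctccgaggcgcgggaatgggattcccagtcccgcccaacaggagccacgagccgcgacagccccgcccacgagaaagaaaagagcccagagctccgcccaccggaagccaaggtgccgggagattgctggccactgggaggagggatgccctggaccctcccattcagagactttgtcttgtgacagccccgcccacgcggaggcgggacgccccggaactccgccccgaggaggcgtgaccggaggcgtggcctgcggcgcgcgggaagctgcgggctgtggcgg
Neither window holds the E2F letters, so none is in capitals; that says only that these letters are not in these 300 bases.

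**Figure D4:**
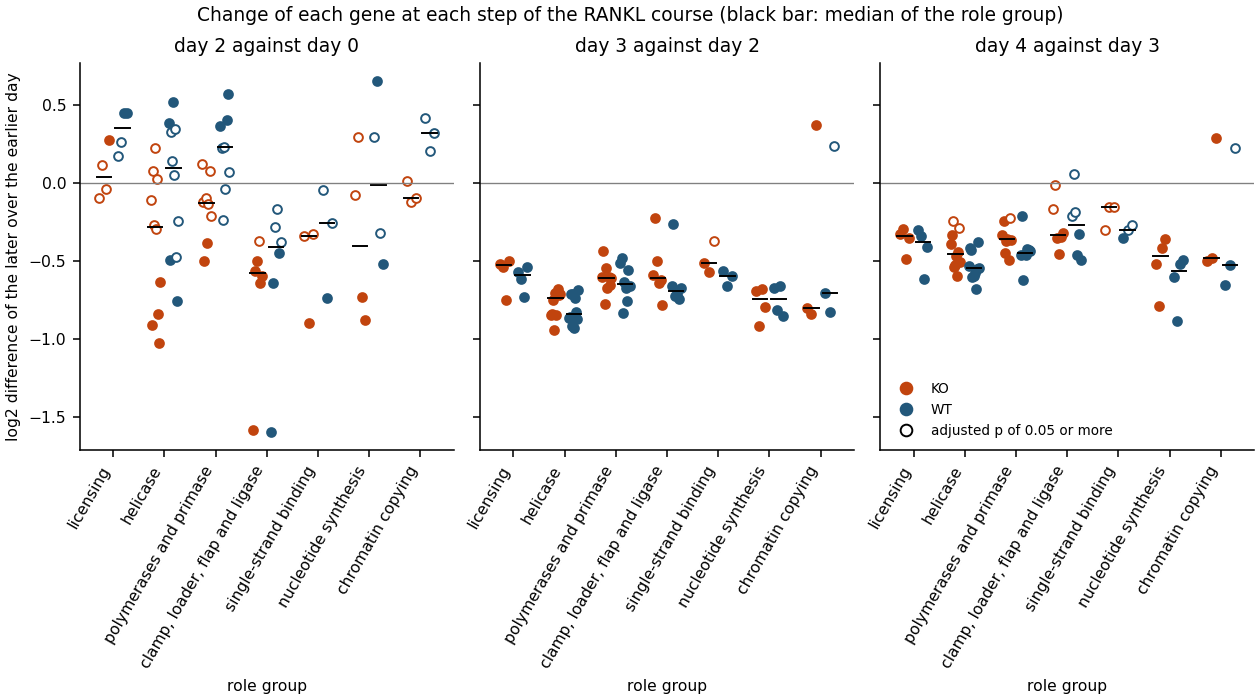
Log2 change of each member in the steps from day 0 to 2, day 2 to 3 and day 3 to 4, KO left of WT, a point per gene within its role group, filled where the adjusted p is under 0.05, with a black bar at the group's median. The first step spreads on both sides of 0, the second lies below 0 for all genes but Chaf1b, and the third is smaller, with medians of -0.36 in KO and -0.46 in WT.

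No member passed the test for a difference between STING-deficient and WT cultures on any day. In KO against WT cultures 0 of the 38 genes were called at days 0, 2, 3 and 4, with 0.0992, 0.0298, 0.0198 and 0.0298% of all genes tested called in either direction. At an unadjusted p under 0.05 by limma there was 1 gene at day 0, Pole, and 0 at the later days; the smallest adjusted p was 1, 1, 0.934 and 1. Member medians were 0.24 at day 0, with 35 genes above 0 and 3 below, then -0.08 (1 and 37), -0.04 (7 and 31) and 0.03 (24 and 14). The day 0 median depended on the WT library of mouse 480. Leaving that library out, an alternative chosen after seeing the data, gave a median of -0.00315, with 18 genes above 0 and 20 below. In that fit 0 genes had an unadjusted p under 0.05 by limma.

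The intervals say what these cultures could show. The median 95% interval reached 0.44 to either side at day 0 and 0.24, 0.20 and 0.22 at days 2, 3 and 4, on the log2(FPKM + 1) scale. Over all 38 genes the intervals ran from -0.76 to 0.96 at day 0, -0.51 to 0.29 at day 2, -0.46 to 0.41 at day 3 and -0.33 to 0.56 at day 4. Pcna differed by -0.09 (-0.59 to 0.41) at day 0 and 0.03 (-0.22 to 0.29) at day 4. Chaf1b differed by 0.33 (-0.07 to 0.74) and 0.12 (-0.08 to 0.32). The values of KO and WT cultures did not overlap for Mcm3 and Pola2 at day 0 (KO higher), Cdt1 at day 2 and Pole and Lig1 at day 3 (KO lower), and overlapped for all 38 genes at day 4. That is 2, 1, 2 and 0 of 38, on each day a lower share than the 5.88, 3.91, 7.47 and 3.98% of all genes tested.

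**Figure D5:**
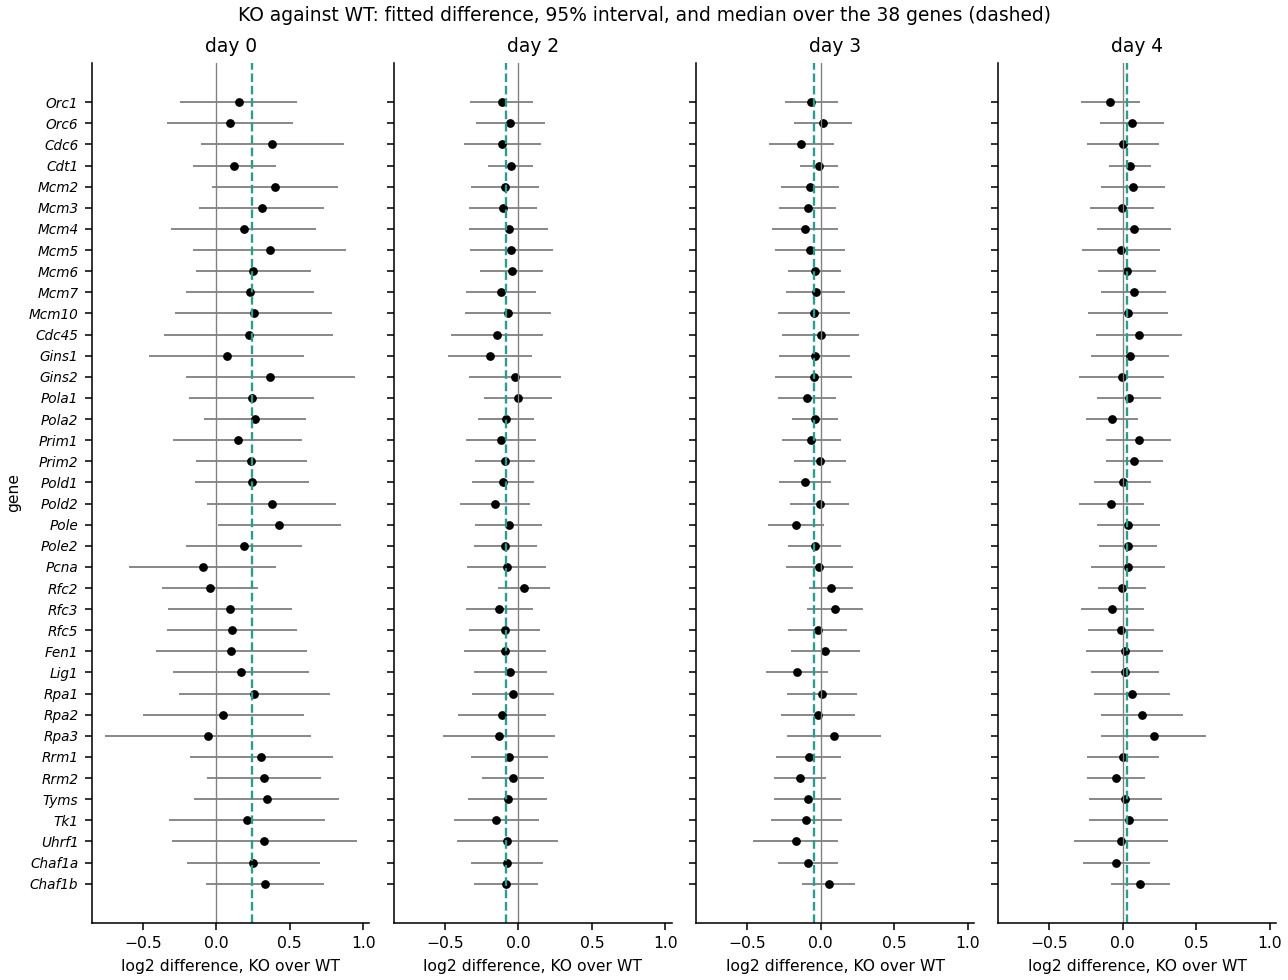
Log2 difference of KO against WT for each of the 38 genes at days 0, 2, 3 and 4, with its 95% interval from limma. The points at day 0 lie mostly above 0 with a median of 0.24, those at days 2 to 4 have medians of -0.08, -0.04 and 0.03, and no gene passes the adjusted threshold.

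The course over days was also tested for a difference between genotypes. No member was called in the changes from day 0 to 2, 2 to 3, 3 to 4 or 0 to 4, beside 0.0397, 0, 0 and 0.0496% of all genes tested. At an unadjusted p under 0.05 by limma there were 3, 0, 0 and 0 members, and without the WT library of mouse 480 at day 0 there were 0 in the day 0 to 2 and day 0 to 4 changes. The larger count of day 2 falls in KO cultures than in WT cultures is therefore not shown to be a difference between genotypes.

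Other genes of the same pathways did not all follow, and their counts at day 4 against day 0 stand beside 40.8% lower and 38.6% higher of all genes tested in KO, and 42.7% and 39.2% in WT. Of 17 further genes for origin licensing and firing, 10 fell and 5 rose in KO, and 7 fell and 5 rose in WT at day 4 against day 0. The kinase that fires origins fell in both its subunits, Dbf4 by 1.84 in KO and 1.61 in WT and Cdc7 by 1.68 and 1.53, while Orc2 changed by 0.97 in KO and 1.17 in WT. Of 24 further fork genes 18 fell and 1 rose in each genotype, among them Rnaseh2b, a subunit of the enzyme that removes RNA from DNA, at -1.90 in KO and -2.05 in WT. Of 31 further genes of nucleotide supply, 11 fell and 5 rose in KO and 13 fell and 7 rose in WT, so the share that fell was near that of all genes. Rrm2b, the small reductase subunit that p53 induces and that does not need S phase, rose at 1.66 in KO and 1.68 in WT, opposite to Rrm2. It averaged 5.63 ± 0.419 FPKM in KO and 5.48 ± 0.458 FPKM in WT cultures at day 4, and 1.10 ± 0.165 and 1.02 ± 0.136 FPKM at day 0 (SD, n = 3 each).

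Among regulators, of 24 genes for E2F, RB and the cyclins and kinases of G1 and S phase, 16 fell and 4 rose in KO and 15 fell and 5 rose in WT at day 4. E2f1 changed by -1.81 in KO and -1.75 in WT, E2f2 by -2.13 in KO and -1.92 in WT and the cyclin gene Ccnd3 by -2.10 in KO and -1.99 in WT. Of 7 CDK inhibitor genes 3 rose and 3 fell in each genotype, shares near those of all genes. Cdkn2b, which encodes p15, changed by 3.43 in KO and 3.80 in WT, with 27.5 ± 3.92 FPKM in KO and 27.5 ± 0.521 FPKM in WT at day 4, and 1.65 ± 0.451 and 1.12 ± 0.642 FPKM at day 0 (SD, n = 3 each). Cdkn2d changed by -2.27 in KO and -2.26 in WT and Cdkn1a, which encodes p21, by -1.32 in KO and -1.31 in WT. Of 11 genes of the S phase checkpoint and fork repair 6 fell and 1 rose in KO and 4 fell and 1 rose in WT, with the kinase gene Atr at 0.83 in KO and 1.12 in WT.

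Over the members, rank correlations of the change with transcript length were small and positive at day 2 and at day 4 against day 0. The rank correlation between the signed day 4 change and the longest annotated transcript was 0.14 in KO and 0.27 in WT over the 38 members, beside 0.31 and 0.37 over the 9139 genes with a length. For day 2 against day 0 it was 0.30 in KO and 0.33 in WT over the members, beside 0.31 and 0.34 over all genes. For day 3 against day 2 it was -0.23 in KO and 0.09 in WT over the members, beside 0.03 and 0.20. For KO against WT at day 0 it was 0.48 over the members and 0.37 over all genes. Genes are not independent replicates, they share libraries and depth, and the part of length in these results was not tested.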

How the data were processed

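Bulk RNA-seq of 24 cultures was used, 3 mice per genotype and 1 library per mouse and day. The authors deposited FPKM per gene and library; per the submitters' processing notes they used HISAT2 2.0.5, Cufflinks 2.2.1 and Cuffdiff with mm10. No source used here gives the depth, the annotation, the strandedness or how the 10721 genes were selected, so no counting error can be attached.

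FPKM are not counts, and limma 3.58.1 (R 4.3.3) was therefore fitted to log2(FPKM + 1). The model had 1 mean for each of 8 groups, a weight per day (0.355, 1.2, 1.7 and 1.38 for days 0, 2, 3 and 4) and a mean-variance trend. Genes entered when any group averaged 1 FPKM or more, 10081 in all, and p-values were Benjamini-Hochberg adjusted over them at 0.05 in each of 16 comparisons. A pseudocount of 1 understates the changes of low genes. The fit was also run on simulated data, only for KO against WT and with libraries of one mouse drawn independently. That run does not cover the day comparisons, and no result here rests on it.

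The same mouse gave a library on each day, so mouse numbers pair the days. Deviations of 1 mouse's libraries from their group means correlated at a median of 0.261 in KO (17 of 18 pairs over 0.1) and 0.136 in WT (10 of 18). P-values without the block treat those libraries as independent.

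Members and lists were chosen with earlier results of these data known. Genes given value by value were, in each role group, the one with the highest mean FPKM and those with the largest and smallest day 4 change in WT, and members called against the direction of most. Promoters came from RefSeq (GRCm38.p6) and exon overlaps from GENCODE vM21; protein sequences were not used here.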

Additional observations from a re-analysis of the deposited data

How the results depend on the processing

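The 16 counts of called members were recomputed under 15 alternatives: a pseudocount of 0.1, no filter, a filter at 5 FPKM, median scaling, equal weights, the 2 groups alone, a replicate block, neighbouring mouse numbers, each mouse left out, and, added after seeing the data, the WT day 0 library of mouse 480 left out. Of 240 counts, 237 stayed within 1.5 times. Those of KO against WT and of genotype differences in change were 0 throughout, so their agreement says little. For WT at day 2 against day 0 the count was 9 with only the groups compared, against 15. Without the WT day 0 library of mouse 480 that count was also 15, but only 10 genes were shared. For KO at day 4 against day 3 it was 12 with equal weights, against 30, and 14 to 33 when 1 mouse was left out, lowest without mouse 528. The cause was not tested. Counts for KO against WT were 0 under all alternatives run.

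With the replicate block, 16 members were called for WT at day 2 against day 0 and 31 for KO at day 4 against day 3; of the named results, Chaf1b in WT at day 3 against day 2 gained its call (adjusted p = 0.0370 by limma), and no other call among the 115 named results changed. Of 1725 values of single members, 1650 kept their direction and side of the threshold, 69 lost their call, 4 gained one and 2 reversed. Both reversals were Mcm6 in KO against WT at day 0, which was -0.0094 without mouse 480 and 0.21 to 0.41 when another mouse was left out. Without read counts, the error of low genes such as Orc1 is known only from the spread between mice.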
